A study of Aspergillus nidulans with 6 samples.

Results

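The genes described here are 4 core histone genes of the filamentous fungus *Aspergillus nidulans*, which lie as neighbours in 2 places in the genome. They are *hhtA* (AN0733, histone H3) and *H4.1* (AN0734, histone H4) on chromosome VIII, and *H2A.X* (AN3468, histone H2A) and AN3469, which is next to it, on chromosome VI. The peaks of *hhtA*, *H4.1* and *H2A.X* were taken by their coordinates, and AN3469 was represented by every peak on chromosome VI that overlapped it by at least 1 bp, of which there was 1. These 4 peaks are part of a list of 468 chromatin regions. The names *H4.1* and *H2A.X* are those used by the study, *hhtA* is also the RefSeq symbol, and AN3469 has no name in the files.

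KaeA is the *A. nidulans* counterpart of yeast Kae1, a subunit of the KEOPS complex, which is known for a threonylcarbamoyl modification of tRNA and, in yeast, for roles at telomeres and in transcription. The study used chromatin immunoprecipitation followed by sequencing (ChIP-Seq) to ask which chromatin regions KaeA is associated with. Core histones H2A, H2B, H3 and H4 form the protein core around which DNA is wound in a nucleosome. Their genes are strongly transcribed when DNA is replicated, and in many fungi they stand in pairs, a gene for H3 beside one for H4 and a gene for H2A beside one for H2B, with a shared space between them. H2A.X is the form of H2A whose C-terminal end is phosphorylated near DNA breaks.

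The 6 libraries were 3 made from chromatin precipitated with the antibody 12CA5 against the HA tag (IP) and 3 made from input DNA, numbered as biological replicates 1 to 3. All came from mycelium of a single strain in liquid minimal medium, fixed with 1% formaldehyde for 15 min. The extracts were sonicated for 25 min. The strain carried *kaeA* fused to the haemagglutinin (HA) tag with *A.f. pyrG* as the marker, and also *pyrG89*, *argB2*, *pabaB22* and nkuA{delta}::argB, where the deletion of *nkuA* impairs non-homologous end joining. The labels give a different riboB allele number to each library, whereas the methods of the study give *riboB2* for the strain. No IP from a strain without the HA tag was among the 6 libraries, so binding to tagged KaeA and unspecific recovery of chromatin cannot be told apart here. Peaks were called by the authors with MACS2 on merged IP against merged input, so the peak list was itself chosen for more reads in these IP libraries. The counts on peaks summed to between 252925 and 377238 in the IP libraries and between 162458 and 278412 in the input libraries.

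The *hhtA* and *H4.1* pair lies on chromosome VIII (genome ASM1142v1, all coordinates counted from 1). The *hhtA* gene spans chrVIII:2576867-2577807, and its peak, chrVIII:2576782-2578165, covered 100% of the gene's 941 bp. The *H4.1* gene spans chrVIII:2575393-2576228, and its peak, chrVIII:2575166-2576180, covered 94.3% of it. No other gene was overlapped by either of these peaks. In the deposited annotation of translated peak sequences, the *hhtA* peak held a reading frame of 175 residues with the Pfam core histone domain (PF00125) at residues 82 to 171. The *H4.1* peak held a frame of 148 residues with a histone fold domain (PF15511, residues 34 to 97) which InterPro names for CENP-T and histone H4.

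The *H2A.X* and AN3469 pair lies on chromosome VI. The *H2A.X* gene spans chrVI:582576-583487, and its peak, chrVI:582649-583598, covered 92.0% of it and reached 35 bp into the next gene, AN3467. AN3469 spans chrVI:581207-582190, and its peak, chrVI:581024-582189, covered 99.9% of it. The same peak overlapped 159 bp of AN3470, which the study annotates as the orthologue of the yeast autophagy protease gene *ATG4*. The study's own list credits this peak to AN3470, whereas here it was assigned to AN3469 by coordinates. The summit of the peak lay inside AN3469, 519 bp from the nearest base of AN3470. The *H2A.X* peak held a frame of 216 residues with the core histone domain (residues 54 to 95) followed by the H2A C-terminal domain (PF16211, residues 98 to 120), which is the domain that marks a histone as H2A. The AN3469 peak held a shorter frame of 52 residues, with the core histone domain PF00125 at residues 19 to 51, and the annotation does not say which core histone it belongs to. Of the 186 peaks with any Pfam domain, these 4 were all the peaks with a histone domain.

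The 4 peaks lay mainly over the genes, and most of the space between the genes of each pair was in no peak. The space between *H4.1* and *hhtA* was 638 bp, and 601 bp separated their peaks. The space between AN3469 and *H2A.X* was 385 bp, and 459 bp separated their peaks. On the side facing its neighbour, the *hhtA* peak went 85 bp past the end of the gene, whereas those of *H4.1*, *H2A.X* and AN3469 stopped 48, 73 and 1 bp short of it. On the far side, each of the 4 peaks ran past the gene, by 358 bp at *hhtA*, 227 bp at *H4.1*, 111 bp at *H2A.X* and 183 bp at AN3469. The summit, which is the base with most IP fragments, fell inside the gene in each case. It was 674 bp from the end of *hhtA* that faces *H4.1*, 407 bp from the facing end in *H4.1*, 268 bp in *H2A.X* and 489 bp in AN3469. The deposited location class of the 4 peaks is 5′ UTR, a class given to 51 of the 468 peaks. The nearest gene in the same deposited table starts 9985 to 76465 bp away, so it is none of these genes, and genes were assigned here by overlap with RefSeq coordinates. The strand of the genes was not used here.

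**Figure D1:**
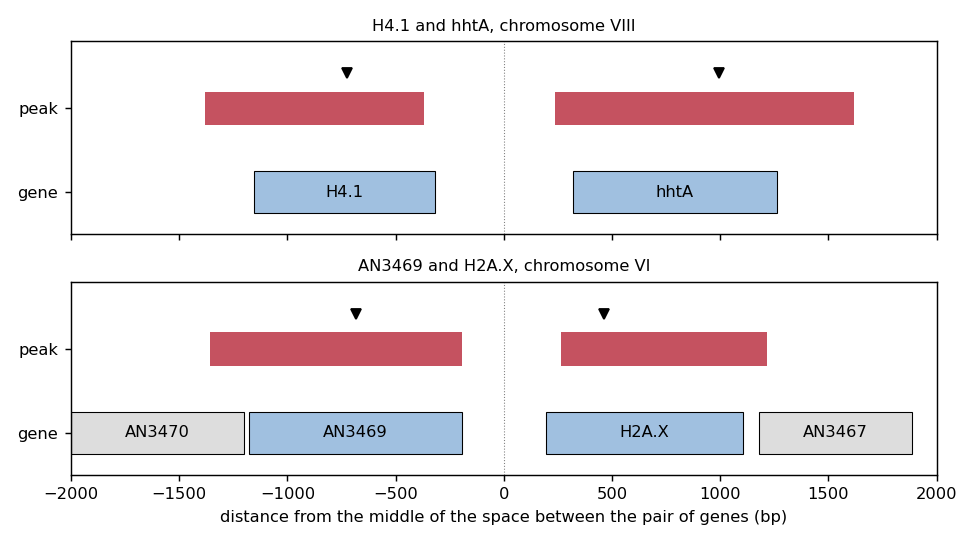
Position of the peaks (red), their summits (triangles) and the RefSeq genes (blue, with other genes that a peak overlaps in grey) as distance in bp from the middle of the space between the pair of genes, for H4.1 and hhtA (top) and AN3469 and H2A.X (bottom), with genes cut off at the edges of the plot. Each summit lies inside its gene, and the middle of the space between the genes lies in no peak.

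Reads on the *hhtA* peak were more abundant in IP than in input. Its normalized count, that is the count scaled by the effective library size, was 1523, 1211 and 1524 in IP replicates 1, 2 and 3, against 904, 890.4 and 858 in input replicates 1, 2 and 3. Every IP library was above every input library, and IP replicate 2 was the lowest of the IP libraries. The log2 fold change of IP over input was 0.68 (SE 0.09, adjusted p = 2.41e-05, edgeR quasi-likelihood test over 468 peaks). Histone H3, the product of *hhtA*, carries many of the modifications that mark active and silent chromatin.

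Of the 4 peaks, that of *H4.1* had the smallest log2 fold change. Its normalized count was 1084, 872 and 1052 in IP replicates 1, 2 and 3, against 705, 763 and 770.4 in input replicates 1, 2 and 3. The groups did not overlap, but the lowest IP library was only 1.13 times the highest input library, against 1.34 times at *hhtA*. The log2 fold change was 0.43 (SE 0.09, adjusted p = 0.00249, edgeR quasi-likelihood test). Histone H4 pairs with H3 in the nucleosome core.

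The *H2A.X* peak, the shortest of the 4 at 950 bp, had the lowest counts per peak and the least spread between libraries. Its normalized count was 944, 847 and 961 in IP replicates 1, 2 and 3, against 616, 639.5 and 628 in input replicates 1, 2 and 3. The SD was 6.74% of the mean in IP and 1.87% in input, and the lowest IP library was 1.32 times the highest input library. The log2 fold change was 0.55 (SE 0.08, adjusted p = 8.34e-05, edgeR quasi-likelihood test).

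The AN3469 peak was also higher in IP. Its normalized count was 1157, 1114 and 1284 in IP replicates 1, 2 and 3, against 760.2, 772 and 809 in input replicates 1, 2 and 3. The means were 1185 ± 88.3 in IP and 780.5 ± 25.8 in input (SD, n = 3 each). With the lowest IP library at 1.38 times the highest input library, its groups were the furthest apart of the 4 on this measure. The log2 fold change was 0.60 (SE 0.08, adjusted p = 2.87e-05, edgeR quasi-likelihood test).

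All 4 histone peaks were thus called higher in IP at an adjusted p under 0.05, as were 11.1% of all peaks (52 of 468, with 24 called lower). All 4 also had every IP library above every input library, which was the case for 16.5% of all peaks. The study chose *hhtA*, *H4.1* and *H2A.X* from these same libraries, and the AN3469 peak was called in them too. The direction of all 4 is therefore not independent evidence. The median log2 fold change of the 4 histone peaks was 0.58, against −0.02 over all 468 peaks and 0.44 over the 60 peaks that MACS2 gave a fold enrichment of 2 or more. IP replicate 2 was the lowest IP library at all 4 histone peaks, at 27 of the 52 peaks called higher and at 175 of all 468 peaks. Its part in the differences was not tested, but without it the log2 fold changes were higher, at 0.78 for *hhtA* and 0.52 for *H4.1*.

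**Figure D2:**
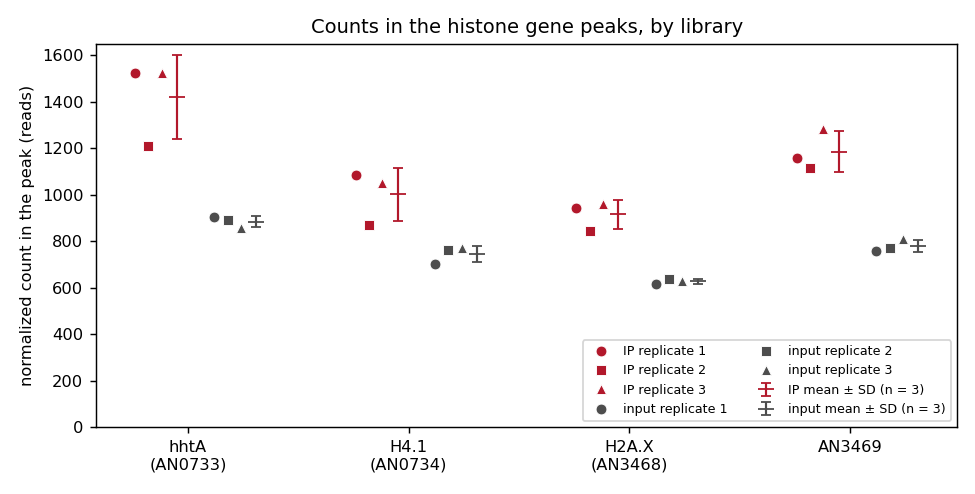
Normalized count in each of the 4 histone peaks, in reads, for IP (red, left) and input (grey, right), with a symbol for each library and the mean ± SD of 3 libraries beside them. The IP libraries lie above the input libraries at each peak, most closely at H4.1, where IP replicate 2 is at 872 and input replicate 3 at 770.4.

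Between genes, levels can be compared only per length. Per kb of peak, the normalized counts in IP averaged 1025 ± 130 for *hhtA*, 988 ± 113 for *H4.1*, 965 ± 65.0 for *H2A.X* and 1016 ± 75.7 for AN3469 (SD, n = 3), so the 4 levels lay within their spread. In input they averaged 639 ± 17.2, 735 ± 35.4, 661 ± 12.3 and 669 ± 22.1 per kb in the same order of genes. *H4.1* was the highest of the 4 in input, with each of its input libraries at or above 694 per kb. The median over all 468 peaks was 668 per kb in IP and 656 per kb in input. In order of level per kb, the histone peaks stood 85th to 98th in IP and 164th to 260th in input. These medians and ranks mix peaks of unlike length, and the histone peaks (950 to 1384 bp) were longer than the median of 397 bp. Short peaks can hold more counts per kb. For example, a 191 bp peak on chromosome II had 245, 244 and 234 normalized counts in input replicates 1, 2 and 3. A 3637 bp peak on chromosome VIII had 1796, 1949 and 1989. Whether the input level of the histone peaks was usual for their length was not tested. The 4 peaks together took 17.3, 14.6 and 18.2 of every 1000 counts on peaks in IP replicates 1, 2 and 3, against 11.9, 12.2 and 12.1 in input replicates 1, 2 and 3.

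In the order of log2 fold change over all peaks, *hhtA* was 12th, AN3469 15th, *H2A.X* 24th and *H4.1* 32nd. The called peaks next to them differed by less than 1 SE. Directly above and below *hhtA* were the peaks of AN7463 (0.71) and of a region with no gene on chromosome V (0.66). Around AN3469 were a region with no gene on chromosome V (0.61) and AN1549 (0.60). *H2A.X* stood between AN10285 (0.55) and AN2498 (0.55), and *H4.1* between AN7892 (0.43) and AN5823 (0.42).

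The peak list of the authors gave the histone peaks the same order except for the last places. Fold enrichment at the summit, which compares merged IP with the local input background, was 2.94 for *hhtA*, 2.67 for AN3469, 2.49 for *H4.1* and 2.41 for *H2A.X*, against a median of 1.53 over all peaks. Their pileup, the number of merged IP fragments over the summit, was 401, 350, 348 and 324, against a median of 189. The −log10 q-value of MACS2 was 71.9, 53.4, 46.5 and 40.3 in the same order. MACS2 used the same reads, merged, so these values are not a separate measurement. Peak length also went with the log2 fold change over the whole list, and the histone peaks (950 to 1384 bp) were longer than the median of 397 bp. At their lengths the trend over all peaks stood at 0.22 for *hhtA*, 0.17 for AN3469, 0.14 for *H4.1* and 0.12 for *H2A.X*. With this trend removed, the log2 fold changes were 0.46, 0.43, 0.29 and 0.43 in that order, and all 4 were still called (adjusted p = 0.00201 to 0.0419, edgeR quasi-likelihood test), as were 6.84% of all peaks, 32 of 468. This setting was chosen after seeing the data.

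**Figure D3:**
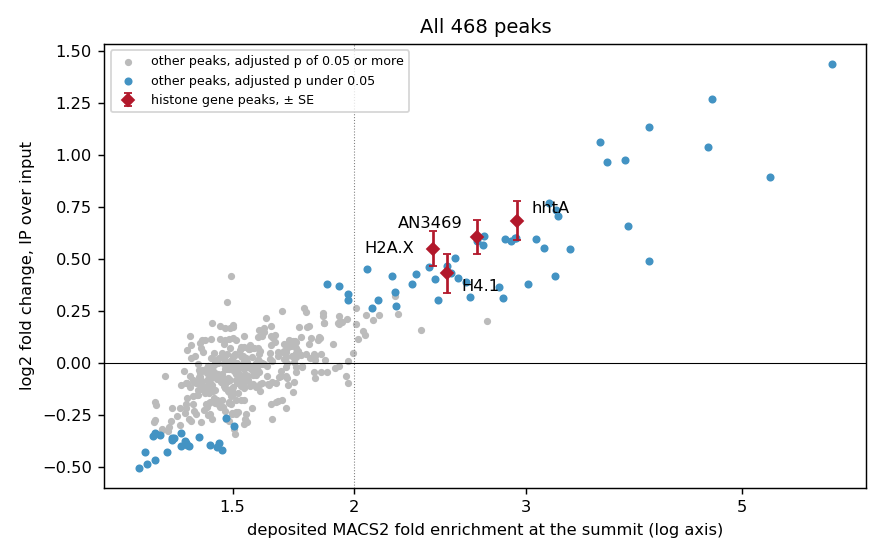
Log2 fold change of IP over input from the counts per library, against the deposited MACS2 fold enrichment (log axis, dotted line at 2) for all 468 peaks, with the 4 histone peaks as red diamonds ± SE, other called peaks in blue and peaks that were not called in grey. The histone peaks lie between 2.41 and 2.94 in fold enrichment and between 0.43 and 0.68 in log2 fold change.

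The calls depended on what IP and input were scaled to. Scaling by TMM takes the bulk of the 468 peaks as unchanged. Where only those 60 peaks of 2-fold enrichment or more were used for scaling, the median of all peaks moved by −0.47 on the log2 scale, and the histone peaks moved with it. These 60 peaks, which include the 4 histone peaks, were chosen for their IP signal, so a fall of all peaks is built into this scale. The 468 peaks behind the TMM scale were themselves called for more reads in IP. Then *hhtA* alone was called among the histone peaks, at 0.21 (SE 0.08, adjusted p = 0.0298, edgeR quasi-likelihood test), as were 2.56% of all peaks (12 higher, with 405 lower). AN3469 was at 0.14 (adjusted p = 0.124), *H2A.X* at 0.08 (adjusted p = 0.346) and *H4.1* at −0.04 (adjusted p = 0.651) in the same edgeR test. With the 56 others alone as the scale, *hhtA* was at 0.22 and *H4.1* at −0.03, and *hhtA* was again the only one called. The counts on peaks do not show which scale holds in the chromatin itself. On the library size alone, the median of all peaks moved by −0.11, with 38 peaks called higher and 60 lower, and the 4 histone peaks were called, at 0.33 to 0.58.

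**Figure D4:**
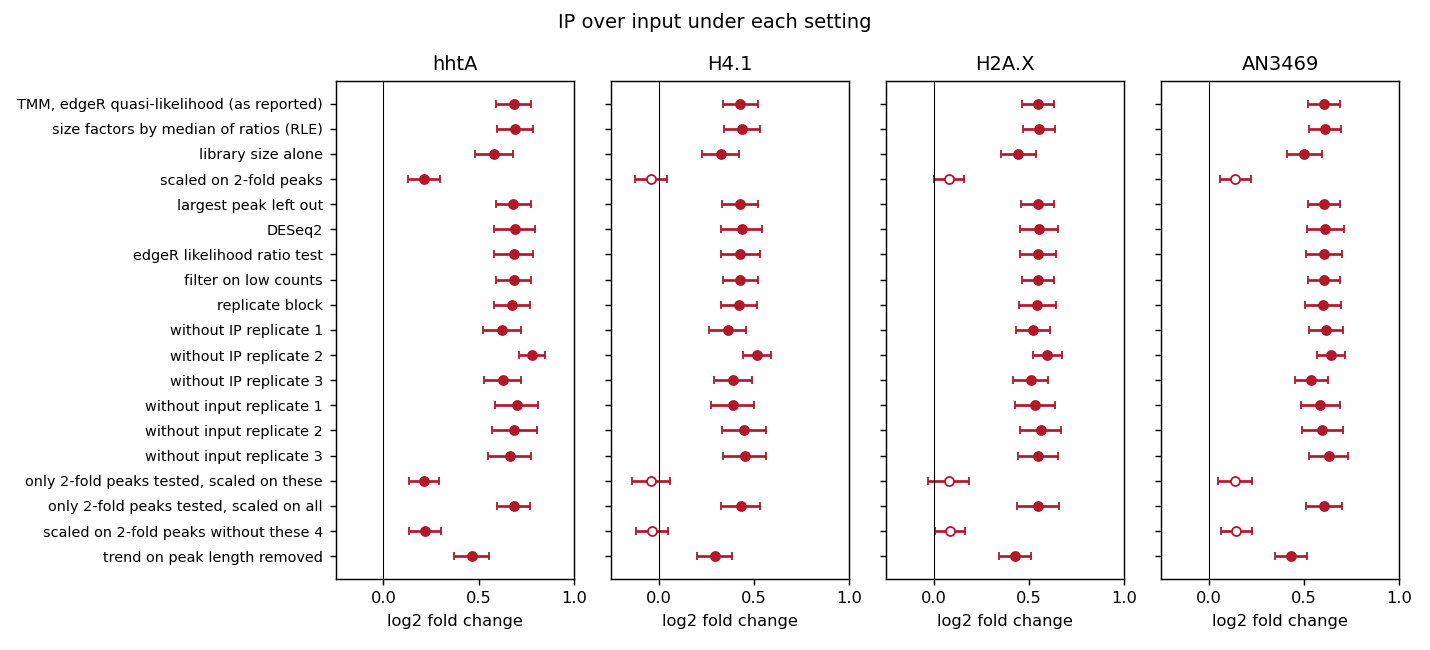
Log2 fold change of IP over input (points, ± SE) of each histone peak as reported (top row) and under 18 alternative settings, with filled points for an adjusted p under 0.05 and open points for a higher one. Open points appear only for H4.1, H2A.X and AN3469, and only in the rows scaled on peaks of at least 2-fold enrichment.

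Ratios between histone peaks inside a library do not depend on how libraries are scaled. The log2 ratio of *hhtA* to *H4.1* was 0.49, 0.47 and 0.53 in IP replicates 1, 2 and 3, against 0.36, 0.22 and 0.16 in input replicates 1, 2 and 3. The ratio was thus higher in every IP library than in every input library, with means that differed by 0.25 (SE 0.06). Its p in an exact two-sided permutation test was 0.10, the smallest that 3 against 3 libraries can give, and 0.30 after adjustment over the 6 pairs of peaks. The groups overlapped in the other 5 pairs. The difference of *H4.1* to AN3469 was −0.18 (SE 0.08), that of *hhtA* to *H2A.X* 0.13 (SE 0.06) and that of *H4.1* to *H2A.X* −0.12 (SE 0.05), each with p = 0.20 in the exact permutation test. *hhtA* to AN3469 (0.07, SE 0.09) and *H2A.X* to AN3469 (−0.06, SE 0.05) had differences under 1.5 SE, with p = 0.50 and 0.30 in the exact permutation test. With 3 against 3 libraries this exact test cannot pass a threshold of 0.05, so it does not show whether the 4 peaks differ in the size of their response.

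**Figure D5:**
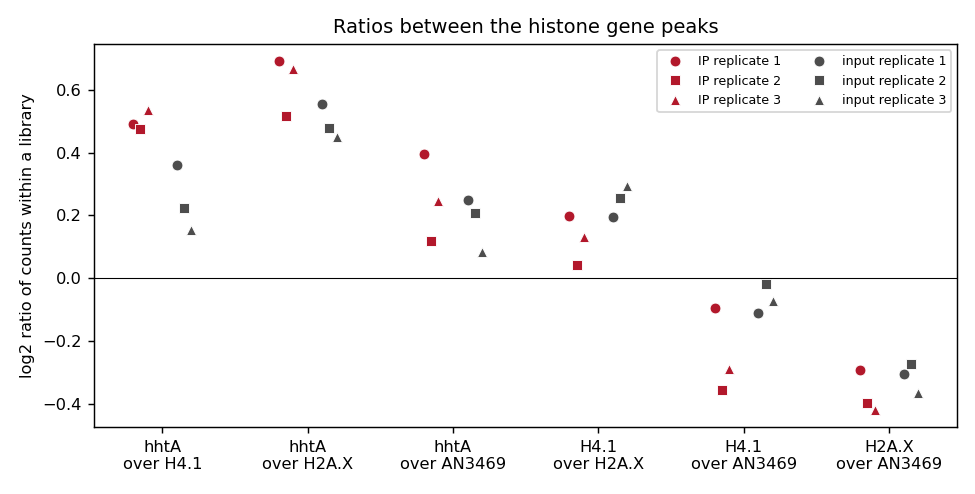
Log2 ratio of the counts of 2 histone peaks in the same library, for the 6 pairs of peaks, with IP libraries in red (left) and input libraries in grey (right) and a symbol for each replicate. The groups are apart only for hhtA over H4.1, at 0.47 to 0.53 in IP and 0.16 to 0.36 in input.

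The profile over the 6 libraries was then compared with that of every other peak, on the log2 scale and after TMM scaling. Since all peaks share the same 6 libraries and were chosen in them, the correlations are descriptions only. Among the histone peaks, Pearson's r was highest for *hhtA* with *H2A.X* (0.989) and *H2A.X* with AN3469 (0.987), and lowest for *H4.1* with AN3469 (0.933). The peaks most like *hhtA* were those of *cpcA* (AN3675, r = 0.989), the activator of the general amino acid control, then AN0833 with AN0834 (r = 0.985) and AN2498 (r = 0.985). Those most like *H4.1* were AN10285 (r = 0.992), *hsp60* (AN6089, r = 0.989), which encodes a mitochondrial chaperonin, and AN0833 with AN0834 (r = 0.989). AN6973 (r = 0.996), AN8907 (r = 0.994) and AN2000 (r = 0.991) were closest to *H2A.X*. AN3674 (r = 0.998), AN8907 (r = 0.996) and AN2000 (r = 0.991) were closest to AN3469. Both pairs thus shared like peaks, AN8907 and AN2000 for the chromosome VI pair and AN0833 with AN0834 for the chromosome VIII pair. Likeness of profile did not mean a similar size of change, since *hsp60* (0.19, adjusted p = 0.133) and AN3674 (0.16, adjusted p = 0.217) were not called in the edgeR quasi-likelihood test.

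The nearest peaks on either side of each pair were not called. On chromosome VIII, the nearest peak before *H4.1* was 6285 bp away, over AN0736, with 199 ± 28.3 normalized counts in IP and 217 ± 18.9 in input (SD, n = 3 each; log2 fold change −0.13, adjusted p = 0.671, edgeR quasi-likelihood test). The nearest after *hhtA* was 84001 bp away, in no gene, at −0.19 (adjusted p = 0.474 in the edgeR test). On chromosome VI, a peak in no gene lay 2541 bp before that of AN3469, with 419.7 ± 35.5 normalized counts in IP and 405 ± 35.5 in input (log2 fold change 0.05, adjusted p = 0.848, edgeR quasi-likelihood test). The nearest after *H2A.X* was 328902 bp away, over *nopA* (AN3361), an opsin gene, at 0.02 (adjusted p = 0.941 in the edgeR test). The difference between these peaks and the histone peaks was not tested.

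Among the 10516 RefSeq genes of the assembly, 780 have a symbol, and the histone symbols among them were *hhtA* and *htz1* (AN8039), which encodes the H2A.Z variant. No peak overlapped *htz1* (chrII:573081-574493), and the nearest, over *gpdA*, the gene of a glycolytic dehydrogenase, was 3042 bp away. Other histone genes without a symbol could not be found by this rule. How the authors treated reads that map to several places is not given in the sources used here, so counts on histone genes with a near-identical copy elsewhere in the genome are uncertain.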

How the data were processed

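Per the labels and the study's methods, the authors trimmed reads with Trimmomatic, mapped them with BWA to ASM1142v1, removed optical duplicates with Picard, merged replicates and called peaks with MACS2. The deposited counts per peak and library are raw. The deposited peak list holds the pileup (a signal, or coverage, at the summit), the fold enrichment (a ratio) and the −log10 q-value. Location classes (ChIPseeker) and Pfam domains were read from deposited annotation. A deposited edgeR table with the authors' log2 fold changes, p-values and FDR was not used.

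Counts were scaled with TMM and tested with edgeR 4.0.16 (quasi-likelihood test, IP against input, no block, all 468 peaks, Benjamini-Hochberg adjustment, threshold 0.05) in R 4.3.3. DESeq2 1.42.0 was an alternative. For normalized counts, each count was divided by the library's effective size (total times TMM factor) and multiplied by the mean effective size. Ratios within a library were tested with exact two-sided permutation tests (scipy 1.17.1). The scripts were tested on simulated data. The labels number the libraries as biological replicates and do not say that IP and input of a number share a culture. The study's methods describe 3 biological experiments, with input DNA from before the precipitation as the control. The correlation of deviations between IP and input of a number was −0.11, −0.05 and 0.03. With 3 libraries per group these values cannot show whether they are pairs. The main test did not treat them as pairs, and the fit with a replicate block is given below.

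Named peaks were the histone peaks, other genes annotated as histones, the 3 peaks most alike in profile, and the neighbours in order of fold change and on the chromosome. The genes, lists and rules were chosen with earlier results of these data known.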

Additional observations from a re-analysis of the deposited data

How the results depend on the processing

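Of 18 alternative settings, 15 left all 4 histone peaks called higher in IP, among them DESeq2, the edgeR likelihood ratio test, median-of-ratios scaling and the removal of the trend on peak length. Where the whole list was tested under these settings, 6.84% to 15.4% of peaks were called higher, against 11.1% as reported (76 called, 52 of them higher). The other 3 settings share a scale set on peaks of at least 2-fold enrichment, which moved all peaks down alike. With the 60 such peaks as the scale, 1 histone peak was called higher, and 417 of 468 peaks were called, 12 higher and 405 lower, with H4.1 at −0.040, H2A.X at 0.079 and AN3469 at 0.14. Without the 4 histone peaks in the scale, 1 histone peak and 416 peaks were called, 12 of them higher, with H4.1 at −0.034, H2A.X at 0.085 and AN3469 at 0.14. With those 60 peaks alone both tested and used as the scale, 1 histone peak and 22 peaks were called, 12 higher and 10 lower, with H4.1 at −0.039, H2A.X at 0.079 and AN3469 at 0.14. With the 60 tested on the scale of all peaks, all 4 histone peaks were called, as were 54 of the 60. The removal of the length trend, the scale without the histone peaks and the last setting were chosen after seeing the data.

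Leaving out each library in turn kept all 4 called, at log2 fold changes of 0.62 to 0.78 for hhtA, 0.36 to 0.52 for H4.1, 0.51 to 0.60 for H2A.X and 0.54 to 0.64 for AN3469, with an adjusted p of at most 0.0328 (edgeR, for H4.1). The calls over the whole list ranged from 47 (without IP replicate 1) to 132 (without IP replicate 2), and were 49 without input replicate 1. The differences in log2 ratio within a library kept their sign in each case, and that of hhtA to AN3469 ranged from 0.0031 to 0.14.

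With the replicate block, the log2 fold changes were 0.67 for hhtA, 0.42 for H4.1, 0.54 for H2A.X and 0.60 for AN3469, all called, as were 83 peaks in all. A sign-flip test of the ratios with the replicate block could not go below p = 0.25 (exact permutation test). The filter on low counts removed 0 peaks, and the peak of AN3469 was also the one found with an overlap of at least 50% of the peak.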
